A study of Homo sapiens with 8 samples.

Results

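A set of 10 antiviral genes was followed in A549 cells, a human lung adenocarcinoma line: IFIT1, IFIT2, IFIT3, IFIT5, MX1, OAS1, OAS2, OAS3, ISG15 and BST2. They were chosen by name, as 10 of the 60664 genes listed in the deposited count table. The table held counts for 5 of the 10, namely IFIT5, MX1, OAS1, ISG15 and BST2, and listed IFIT1, IFIT2, IFIT3, OAS2 and OAS3 at 0 in all 8 libraries. A gene at 0 in all libraries is treated here as not measured.

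Poly(A) RNA was sequenced from 4 groups of 2 libraries: untreated cells, cells given AX-0085, cells given IFN-γ, and cells given IFN-γ and AX-0085. IFN-γ was used at 20 ng (per mL in the study's methods) for 24 h, AX-0085 was then added to 0.5 μM, and the cells were harvested after another 24 h. AX-0085 is a kinase inhibitor that the study selected for blocking the response of the PD-L1 gene to IFN-γ. The comparisons ask how other genes responded to IFN-γ and how they stood after AX-0085 was added 24 h later. No group was harvested when AX-0085 was added, so a fall from that level and a halted rise cannot be told apart. All 4 groups share the same tumor line, so no group stands for normal lung epithelium, and the labels do not say whether the 2 libraries of a group came from separate cultures, so the p-values may measure technical spread only.

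Interferons are secreted proteins that put cells into an antiviral state. IFN-γ acts mainly through GAS elements in DNA, while type I and type III interferons act mainly through ISGF3, a transcription factor complex that binds the interferon-stimulated response element (ISRE). The genes followed here encode effectors of that state and are widely used as markers of an interferon response. The IFIT proteins bind viral RNA, the OAS enzymes make 2′-5′ oligoadenylates that trigger RNA decay, MX1 is a GTPase that blocks incoming viral ribonucleoproteins, ISG15 is a ubiquitin-like protein that is attached to other proteins, and BST2 (tetherin) holds budding virus particles at the cell surface.

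Promoter sequences were compared because ISRE and GAS elements are read from DNA. RefSeq's promoter entries (GRCh38.p14) covered 8 of the 10 genes with 11 start sites, and IFIT2 and OAS2 had no entry. Each 250-base stretch upstream of a start site was searched on both strands for the ISRE core, here GAAA, 2 bases of any kind and GAAA, for the same core with 1 base in between, GAAANGAAA, and for the GAS core TTCNNNGAA. The core with 1 base in between was added after the sequences of these promoters had been seen. The core with 2 bases in between occurred upstream of a listed start site in 7 of the 8 genes, all except OAS1. Of all 27305 genes with an entry, 3.71% held it in at least 1 of theirs. By start site, 8 of the 11 entries held it, against 3.02% of all 35116 entries. OAS1 held GAAANGAAA, which 3.34% of all genes held. One 30-base stretch is shown for each gene, on the gene's own strand, with the searched motifs in capitals. ISRE matches on the opposite strand read as a pair of TTTC runs, and several motifs overlap one another.

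IFIT1: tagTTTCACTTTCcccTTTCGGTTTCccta
IFIT3: ccatcagTTTCACTTTCCTTTCccctttca
IFIT5: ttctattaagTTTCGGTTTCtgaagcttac
MX1: cactctgTTTCTCTTTCCGTGAAtaaaaag
OAS1: cctcccttctgagGAAACGAAAccaacagc
OAS3: ctagaaaGAAACGAAACTGAAAgcagggaa
ISG15: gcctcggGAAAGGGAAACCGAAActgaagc
BST2: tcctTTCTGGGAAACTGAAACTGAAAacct

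These stretches lie at chr10:89392504-89392533 (IFIT1), chr10:89332471-89332500 (IFIT3), chr10:89414513-89414542 (IFIT5), chr21:41431847-41431876 (MX1), chr12:112906932-112906961 (OAS1), chr12:112938319-112938348 (OAS3), chr1:1013377-1013406 (ISG15) and chr19:17405741-17405770 (BST2), with BST2 on the minus strand and the others on the plus strand. MX1 has 3 start sites and IFIT3 has 2, and the start site shown is the one whose stretch held the core with 2 bases in between for MX1 and the most motif bases for IFIT3. A GAS core was found upstream of BST2, MX1 and OAS1, and of 8.09% of all genes with an entry. IFIT5, ISG15, IFIT1, IFIT3 and OAS3 held no GAS core in these windows. A motif match describes the letters of the window and does not show that a protein bound there. Upstream here means before the RefSeq start site, and it does not mean untranscribed. By the GENCODE positions given below, the stretches of OAS1, OAS3, IFIT3, MX1 and ISG15 lie inside the gene's own span. The OAS1 stretch lies inside an OAS1 exon. In the 150 bases before the start sites shown, annotated exon bases numbered 150 for OAS1 and OAS3 and 140 for IFIT5. They numbered 95 for BST2, 77 for IFIT1, 45 for IFIT3, 19 for MX1 and 0 for ISG15.

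The library totals ran from 20672828 to 29978251 counts, and 3 counts, the level that a count of 0 allows, correspond to 0.0959 to 0.158 CPM (counts scaled to a common library size), for counting error only. The 6 epithelial markers fixed for the check were detected in all libraries, with KRT7 at 65534 counts or more. Of 5 leukocyte markers, 4 were at 0 and PTPRC reached at most 1 count. Of 4 fibroblast or endothelial markers, PDGFRB, PECAM1 and VWF reached at most 6 counts, and COL1A1, at 71 to 267 counts, was called lower with IFN-γ (log2 -1.45) and higher on adding AX-0085 (1.10). The summed level of these 4 was 9.07 to 11.1 CPM in untreated libraries, 9.36 to 9.75 with AX-0085, 3.02 to 4.65 with IFN-γ and 7.13 to 8.50 with both. In bulk RNA, fewer cells that express a gene and less RNA per cell cannot be told apart. Of the 6 epithelial markers, 5 were called lower with IFN-γ (EPCAM, CDH1, KRT8, KRT18 and KRT19), beside 17.2% of all genes tested. The summed level of all 6 was 8821 to 9550 CPM in untreated libraries, 5759 to 6089 with AX-0085, 6512 to 7398 with IFN-γ and 7221 to 7304 with both, and the part of these shifts in the results below was not tested.

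The 5 genes without counts have a feature in common in the GENCODE 44 annotation of GRCh38. All exon bases of IFIT1 (chr10:89392546-89406487), IFIT2 (chr10:89283694-89309271) and IFIT3 (chr10:89327307-89377473) lie inside the span of LIPA, a lysosomal lipase gene on the opposite strand (chr10:89213569-89414557). All exon bases of OAS3 (chr12:112938051-112976460) and OAS2 (chr12:112978395-113011723) lie inside the span of a long noncoding RNA gene on the opposite strand (ENSG00000257452, chr12:112907628-113017751). IFIT1, OAS2 and OAS3 share 0 exon bases with any other gene, so the overlap is with introns of the opposite gene. IFIT5 (chr10:89414568-89421605) begins just beyond the end of LIPA and was counted.

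The counted genes lie in other positions. IFIT5 and BST2 (chr19:17402939-17405630) have no exon base inside another gene. ISG15 (chr1:1001138-1014540) has 4.15% of its exon bases inside one and MX1 (chr21:41420020-41470071) has 23.5%. OAS1 (chr12:112905856-112933219) has 91.0% of its exon bases inside the same noncoding gene as OAS2 and OAS3. Its 1173 exon bases outside lie at chr12:112905856-112906053 and chr12:112906653-112907627, at its 5′ end.

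**Figure D1:**
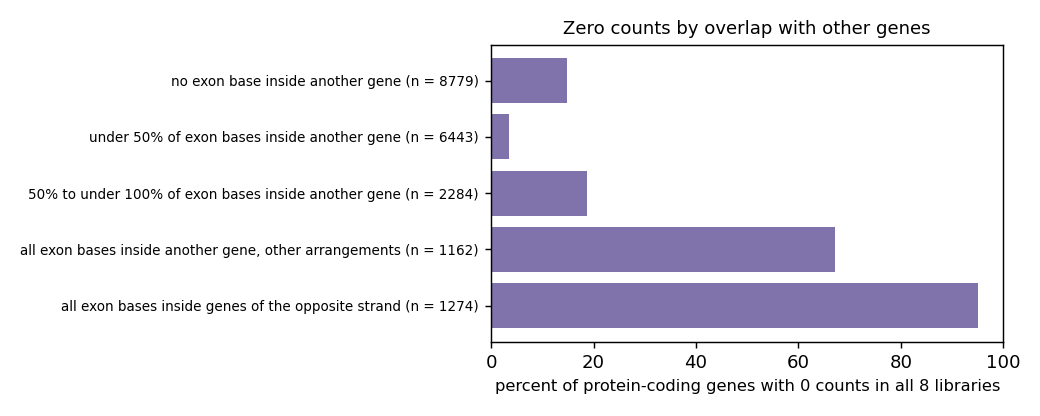
Percent of protein-coding genes at 0 counts in all 8 libraries (horizontal axis), by how much of their exon sequence lies inside the span of another gene in GENCODE 44 (bars, with the number of genes in each class). The class that holds IFIT1, IFIT2, IFIT3, OAS2 and OAS3, at the bottom, stands at 95.1%, against 14.9% of genes with no exon base inside another gene.

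Across the table, 1211 of 1274 protein-coding genes with all exon bases inside genes of the opposite strand were at 0 in all 8 libraries (95.1%). Among the 8779 protein-coding genes with no exon base inside another gene, 1311 were (14.9%). These classes were drawn up after the zeros had been seen, and the plot of zero counts by overlap shows all of them. The annotation release, the strand setting and the rule for overlapping features used in the counting are not given in the sources used here. The zeros of the 5 genes are therefore not read here as absence of expression in any group. LIPA itself had 3131 and 2406 counts in untreated cells. Its counts were 896 and 1202 after IFN-γ, 3804 and 3998 after AX-0085, and 3308 and 2434 in cells given both. The noncoding gene had 2 counts or fewer in every library.

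The first comparison asks which of the genes responded to IFN-γ. IFIT5, MX1, ISG15 and BST2 rose, and OAS1 was lower by less than 2-fold. BST2 rose by 96.3-fold, MX1 by 35.4-fold, ISG15 by 32.1-fold and IFIT5 by 3.24-fold. All 5 had counts enough to be tested, and with IFN-γ 10.3% of the 15066 genes tested were called higher and 17.2% lower, where a call needs a Benjamini-Hochberg adjusted p under 0.05 in edgeR's quasi-likelihood test and a change over 2-fold.

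ISG15, the ubiquitin-like modifier, stood at 2.81 and 3.14 CPM in the 2 untreated libraries and at 93.9 and 96.8 CPM with IFN-γ. Its log2 change was 5.01 (SE 0.13, adjusted p = 4.58e-12). Both treated libraries lay far above both untreated ones, and the spread within each group was small beside that gap.

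MX1, the ribonucleoprotein-blocking GTPase, was measured at 0.629 and 0.652 CPM in untreated cells, from 19 and 16 counts, and at 19.0 and 26.3 CPM with IFN-γ. The log2 change was 5.15 (SE 0.22, adjusted p = 3.01e-10). The IFN-γ libraries differed from each other more than those of ISG15 did, but neither came near the untreated level.

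BST2, the tetherin gene, was close to absent in untreated cells, with 7 and 5 counts (0.232 and 0.204 CPM). IFN-γ brought it to 432 and 508 counts (22.8 and 20.4 CPM). The log2 change was 6.59 (SE 0.23, adjusted p = 4.36e-11), which ranked 27 from the top among the 15066 genes tested, ahead of MX1 at 42 and ISG15 at 47. Because the starting level rests on so few counts, the size of this change is less certain than its direction.

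IFIT5, the RNA-binding family member outside LIPA, was already expressed in untreated cells at 22.1 and 24.6 CPM. It reached 74.1 and 77.1 CPM with IFN-γ, a log2 change of 1.70 (SE 0.08, adjusted p = 7.98e-10). The groups did not overlap, and the change ranked 565 from the top.

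OAS1, an oligoadenylate synthetase, stood at 4.93 and 5.25 CPM in untreated cells and at 3.01 and 3.38 CPM with IFN-γ. The log2 change was -0.66 (SE 0.16, adjusted p = 0.00227), below the 2-fold limit of a call. Of the 13021 exon bases of OAS1 only 1173 lie clear of the opposite-strand gene, so this value may not stand for the whole transcript. Without overlap between the groups, 4 of the 5 genes were higher and 1 lower, beside 37.8% and 43.3% of all genes tested.

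**Figure D2:**
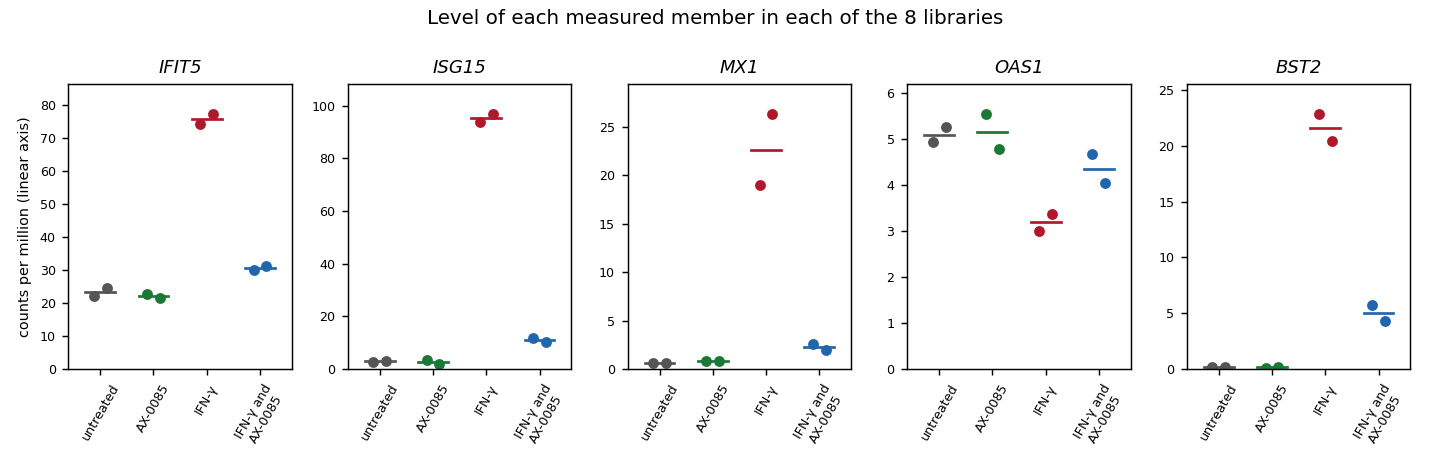
CPM of the 5 measured genes (linear vertical axes, 1 panel per gene) in the 8 libraries, by group. Points are libraries and horizontal bars are the means of 2; ISG15 stood at 93.9 and 96.8 CPM with IFN-γ and at 11.7 and 10.4 CPM with both agents, and OAS1 was lowest with IFN-γ.

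The order of the genes by level changed with IFN-γ. Levels between genes are compared as CPM per kilobase of exon bases lying outside other genes, a length that assumes only those bases were counted. In untreated cells IFIT5 was at 5.35 ± 0.41 (SD, n = 2), OAS1 at 4.34 ± 0.20, ISG15 at 3.58 ± 0.28, BST2 at 0.198 ± 0.018 and MX1 at 0.0465 ± 0.0012. With IFN-γ ISG15 led at 114.7 ± 2.4 CPM per kilobase, followed by BST2 at 19.6 ± 1.5 and IFIT5 at 17.3 ± 0.47. OAS1 came next at 2.72 ± 0.22 and MX1 last at 1.65 ± 0.37. BST2 and IFIT5 were the closest neighbors there at the upper end, and the difference between them was not tested. The place of MX1 rests on the length used for it, 13757 exon bases outside other genes, taken over all of its transcripts.

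The second comparison asks what AX-0085 did when added to IFN-γ. ISG15, MX1, BST2 and IFIT5 all fell, where 8.28% of all genes tested were called lower and 16.5% higher. MX1 fell 9.87-fold, ISG15 8.58-fold, BST2 4.24-fold and IFIT5 2.47-fold. OAS1 was higher by less than 2-fold. The IFN-γ libraries serve in both this comparison and the previous one, so the values of the 2 comparisons are not independent of each other.

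ISG15 was at 11.7 and 10.4 CPM with both agents, a log2 change of -3.10 (SE 0.11, adjusted p = 9.23e-11) from IFN-γ alone. MX1 was at 2.56 and 1.98 CPM, a change of -3.30 (SE 0.18, adjusted p = 3.49e-09). Both genes stayed above their untreated levels in both libraries.

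BST2 was at 5.72 and 4.31 CPM with both agents, a log2 change of -2.08 (SE 0.13, adjusted p = 2.01e-08). IFIT5 was at 30.1 and 31.1 CPM, a change of -1.31 (SE 0.08, adjusted p = 1.05e-08). OAS1 was at 4.67 and 4.05 CPM, a change of 0.45 (SE 0.16, adjusted p = 0.0259), which is not a call. For all 5 genes the libraries of the 2 groups did not overlap, 4 lower and 1 higher, beside 40% and 42.6% of all genes tested.

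**Figure D3:**
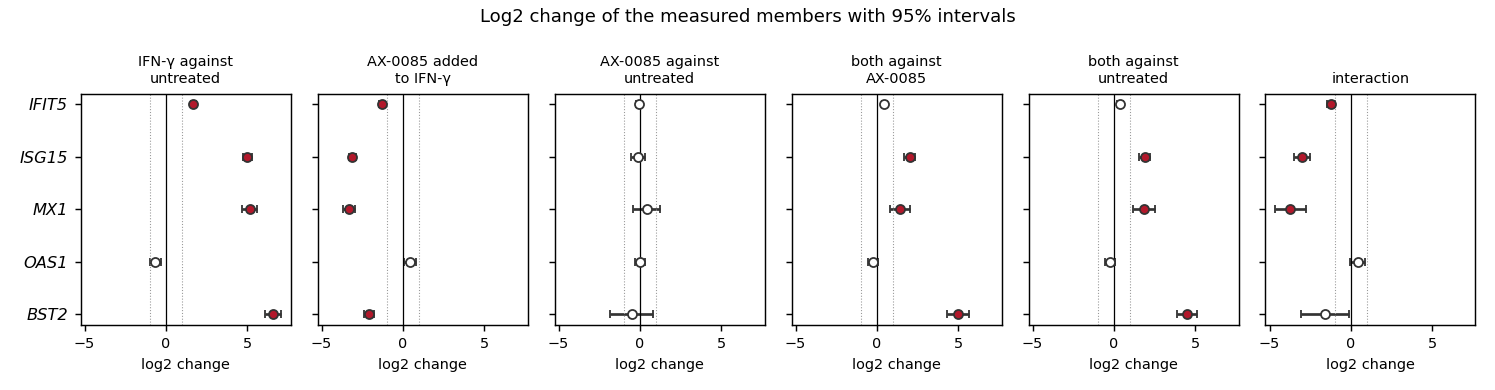
Log2 change of the 5 measured genes (rows) in 6 comparisons (panels), with 95% intervals from edgeR's quasi-likelihood fit. Filled points are called at an adjusted p under 0.05 and over 2-fold (dotted lines at a log2 change of 1 either way); ISG15, MX1, BST2 and IFIT5 are called higher with IFN-γ and lower on adding AX-0085, and no gene is called for AX-0085 alone.

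Without IFN-γ, AX-0085 gave no call among the 5 genes, where 6.41% of all genes tested were called higher and 5.62% lower. At an unadjusted p under 0.05, 0 of the 5 passed in edgeR's test, and DESeq2's Wald test also called 0 of them. MX1 was higher and BST2 lower without overlap between the groups, beside 38.8% and 37.4% of all genes tested. ISG15 was at 3.39 and 2.15 CPM with AX-0085, with a log2 difference of -0.11 (95% interval -0.52 to 0.31). MX1 was at 0.876 and 0.828 CPM, with a difference of 0.41 (-0.41 to 1.23). IFIT5 was at 22.8 and 21.4 CPM, with a difference of -0.08 (-0.26 to 0.10).

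OAS1 was at 5.54 and 4.78 CPM with AX-0085, and its log2 difference of 0.02 had an interval of -0.29 to 0.33. BST2 had 3 and 5 counts, and its interval of -1.81 to 0.84 means that a fall of up to 1.81 on the log2 scale is not excluded at this depth. The intervals of IFIT5, OAS1 and ISG15 lie inside a 2-fold change in either direction, while those of MX1 and BST2 do not.

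The interaction tests whether AX-0085 changed a gene differently with IFN-γ than without it. Called interactions were found for MX1 (log2 -3.71, SE 0.44, adjusted p = 1.45e-05), ISG15 (-2.99, SE 0.23, adjusted p = 3.09e-07) and IFIT5 (-1.23, SE 0.11, adjusted p = 1.96e-06), where 6.46% of all genes tested were called lower and 12.1% higher. For BST2 the estimate was -1.59 (SE 0.69, adjusted p = 0.0694). It is the gene with the fewest counts without IFN-γ, and leaving out 1 library at a time gave adjusted p-values of 0.0313 to 0.353, the lowest without replicate 1 of the group given both agents. For OAS1 the estimate was 0.43 (SE 0.22, adjusted p = 0.116).

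What was left of the IFN-γ response under AX-0085 differed between the genes. Against AX-0085 alone, BST2 was still 31.9-fold higher (log2 5.00, SE 0.30, adjusted p = 2.09e-07) in cells given both agents. ISG15 was 4.03-fold higher (adjusted p = 1.69e-06) and MX1 was higher by a log2 difference of 1.43 (adjusted p = 0.00216), and these 3 genes were called, where 1.79% of all genes tested were called higher and 1.73% lower. IFIT5 had a log2 difference of 0.47 (SE 0.08, adjusted p = 0.000841), under the 2-fold limit. For OAS1 it was -0.23 (SE 0.15, adjusted p = 0.244).

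Against untreated cells the group given both agents gave a like order. BST2 was 22.8-fold higher, ISG15 3.75-fold and MX1 3.59-fold, all 3 called, where 7.51% of all genes tested were called higher and 7.23% lower. IFIT5 differed by 0.39 on the log2 scale (adjusted p = 0.00123) and OAS1 by -0.21 (adjusted p = 0.233), neither of them called.

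The share of the IFN-γ change that AX-0085 removed was taken on the log2 scale, so it depends on each gene's untreated level. It is the log2 fall on adding AX-0085 as a percentage of the log2 rise with IFN-γ, taken from the group fits, and its SD is that of the same share computed for each of the 2 libraries given both agents. Both terms contain the IFN-γ libraries, so it is a description. IFIT5 lost 77.1% ± 2.2 (SD, n = 2), MX1 64.2% ± 5.1, ISG15 61.9% ± 2.5 and BST2 31.6% ± 4.4. The median of the 1547 genes that IFN-γ raised was 62.7%, with quartiles of 36.6% and 91.1%. BST2 was below the lower quartile, at a value that 21.2% of those genes were below, and its libraries, at 29.0% and 35.1%, lay under those of the other 3 genes, the lowest of which was ISG15 at 60.4%. The difference between genes in this share was not tested. The level left with both agents, as a percent of the mean CPM with IFN-γ, had another order. It was 40.5% for IFIT5, 23.2% for BST2, 11.6% for ISG15 and 10.0% for MX1. IFIT5 thus lost the largest share on the log2 scale and also kept the largest part of its level.

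**Figure D4:**
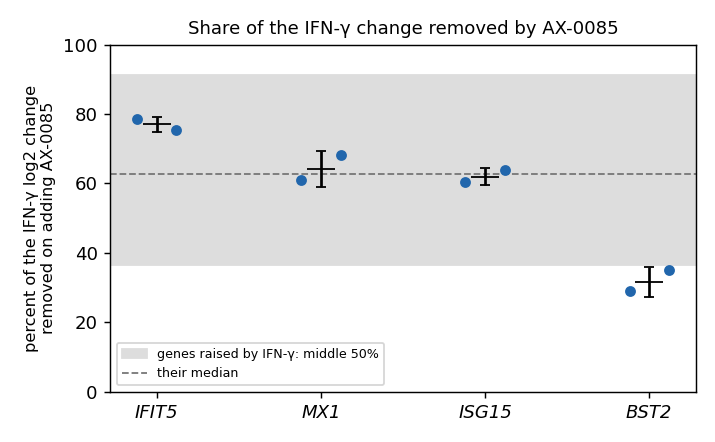
Percent of the IFN-γ log2 change removed on adding AX-0085 (vertical axis) for the 4 genes that IFN-γ raised. Points are the 2 libraries given both agents, black marks the value from the group fits with the SD of the libraries, and the gray band and dashed line the quartiles and median of the 1547 genes raised by IFN-γ; BST2, at 31.6%, lies below the band.

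ISG15 is attached to proteins and removed from them by a small set of enzymes that interferon also controls. Of 6 such genes tested, 4 rose with IFN-γ (UBA7, UBE2L6, HERC6 and TRIM25), beside 10.3% of all genes tested. UBE2L6, the conjugating enzyme, went from 686 and 613 counts in untreated cells to 6403 and 7182 with IFN-γ and to 1923 and 1295 with both agents. It fell by 2.39 on the log2 scale on adding AX-0085 (adjusted p = 3.95e-11). UBA7, the activating enzyme, had 5 and 1 counts in untreated cells, 69 and 66 after IFN-γ and 85 and 94 in cells given both. Its change on adding AX-0085 was 0.13 (95% interval -0.41 to 0.67, adjusted p = 0.663), so no loss of its IFN-γ response was detected.

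HERC5, the main ligase for ISG15, was not raised by IFN-γ (log2 -0.65, adjusted p = 0.000627, under the 2-fold limit). It stood at 8.50 and 8.68 CPM in untreated cells and at 5.70 and 5.27 after IFN-γ. It was at 3.74 and 3.54 CPM after AX-0085, and at 2.81 and 2.25 in cells given both. It was the only gene of the antiviral list called for AX-0085 alone in the fit reported here (log2 -1.24, SE 0.14, adjusted p = 6.12e-06). USP18, which removes ISG15 from proteins, had a log2 difference of -0.08 with IFN-γ (adjusted p = 0.479).

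Relatives of the genes were looked at next. OASL, an OAS-like gene with no exon base inside another gene, rose from 0.926 and 0.815 CPM to 23.8 and 23.5 with IFN-γ (log2 4.75, SE 0.15, adjusted p = 1.78e-11). It fell by 4.00 on the log2 scale on adding AX-0085 (SE 0.14, adjusted p = 4.94e-11), to 1.47 and 1.48 CPM. MX2, the paralog of MX1, had 1 and 2 counts in untreated cells, 19 and 67 after IFN-γ, and 7 and 6 in cells given both. IFIT1B, which also lies inside LIPA, was listed at 0.

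A wider list of 40 antiviral genes was set beside them, made of the relatives, the conjugation genes and 31 other effectors, of which 35 had counts enough to be tested. With IFN-γ 23 rose and 1 fell, beside 10.3% and 17.2% of all genes tested. The median log2 change was 1.89 against -0.06 over all genes tested. On adding AX-0085 23 fell and 1 rose, beside 8.28% and 16.5% of all genes tested. The median there was -1.19 against 0.03. Setting the genes with 3 counts or fewer in each library of a group at the bound that 3 counts give, 7 with IFN-γ and 1 on adding AX-0085, left these medians at 1.89 and -1.19. For AX-0085 alone 0 rose and 1 fell, beside 6.41% and 5.62% of all genes tested. In cells given both agents 7 were higher and 0 lower than with AX-0085 alone, beside 1.79% and 1.73%.

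Some members of that list stand out by size. XAF1, a proapoptotic interferon target, was at 0 counts in both untreated libraries and at 175 and 230 after IFN-γ, at least 75.7-fold higher with the floor at 3 counts per library, and at 4 and 1 with both agents. IFI27, another interferon marker, rose from 10 and 7 counts to 690 and 966 (log2 6.90, SE 0.16, adjusted p = 1.22e-12). IFI44 had 1 count in each untreated library, 68 and 137 after IFN-γ, and 19 and 13 in cells given both. IFI44L fell by 3.33 on the log2 scale on adding AX-0085 (SE 0.20, adjusted p = 1.17e-08).

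**Figure D5:**
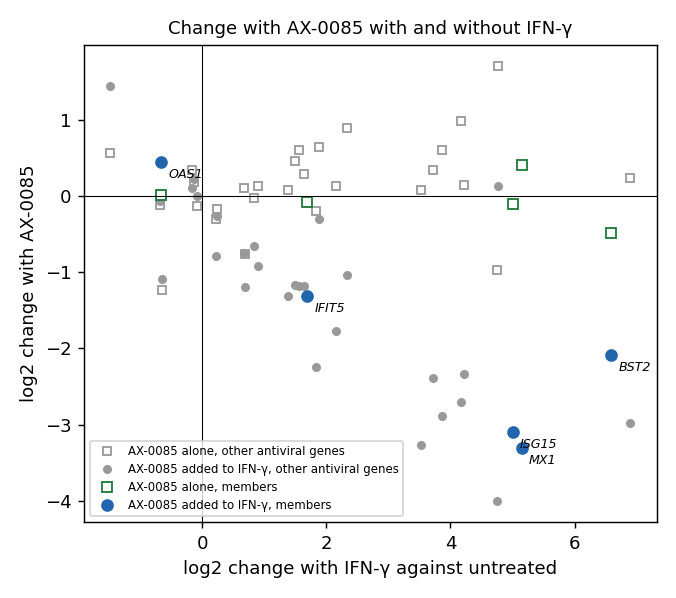
Log2 change with AX-0085 (vertical axis), added to IFN-γ (filled circles) or alone (open squares), against the log2 change with IFN-γ (horizontal axis), for the 5 measured genes (color) and 28 other antiviral genes (gray). The 7 genes with 3 counts or fewer in each library of some group are left out, the axes share the IFN-γ or untreated libraries, and ISG15 and MX1 lie low at right while OAS1 lies near the origin.

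STAT2 and IRF9, subunits of ISGF3, were measured as well. STAT2 rose by 1.57 on the log2 scale with IFN-γ (SE 0.10, adjusted p = 1.31e-08). Its differences on adding AX-0085 (-0.81) and with AX-0085 alone (0.95) were not calls, being below the 2-fold limit. The fall on adding AX-0085 had an adjusted p under 0.05 in edgeR's test. With AX-0085 alone both libraries, at 35.8 and 35.5 CPM, lay above both untreated ones, at 19.2 and 17.6, beside 38.8% of all genes tested. STAT2 stood at 18.4 ± 1.2 CPM (SD, n = 2) in untreated cells and at 35.6 ± 0.2 with AX-0085 alone. With IFN-γ it was at 54.8 ± 8.0 CPM, and with both agents at 31.4 ± 0.4. IRF9 had 3 and 1 counts in untreated cells, 11 and 23 after IFN-γ, and 7 and 2 in cells given both. As with OAS1, most of its exon bases lie inside another gene, 980 of 6471 being clear, so these low counts may not stand for its level.

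Of 8 interferon ligand genes, 5 were at 0 in all libraries and none had counts enough to be tested. IFNE, IFNK and IFNG, 3 of the 5, have no exon base outside other genes and so are not read as absent, like the genes inside LIPA. IFNL1, which lies clear of other genes, reached at most 4 counts. Of 6 receptor genes 5 were tested, and with IFN-γ 1 was called lower, which is near the 17.2% of all genes tested. The gene called was IFNLR1, of the type III receptor (log2 -1.05, SE 0.17, adjusted p = 0.000126). Of the IFN-γ receptor subunits, IFNGR1 had a log2 difference of 0.10 (adjusted p = 0.299) and IFNGR2 one of -0.66 (adjusted p = 0.000245). IFNAR1 of the type I receptor had -0.51 (adjusted p = 0.00115), and none of these passed the 2-fold limit. Only 1136 of the 2539 exon bases of IFNGR2 lie outside other genes, so its value may not stand for the whole transcript. IFNAR2, with 77 of 13865 outside, was the gene not tested.

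Genes with a pattern like the common profile of the measured genes were sought among 10308 other genes, by Pearson's r over the 8 libraries with the median of the 5 standardized log2 CPM profiles. That profile follows IFIT5, MX1, ISG15 and BST2, while OAS1 runs against it (r = -0.927). SUPT20H (r = 0.997), PKD1P2 (0.997), PTPDC1 (0.997), CDYL (0.997) and PDCD11 (0.997) were the most alike. The 8 libraries fall into few levels set by the treatments, so that many genes reach such a value. PKD1P2 is a pseudogene with near-identical copies, which makes its count uncertain. The profile is highest with IFN-γ, so genes picked by it are higher with IFN-γ through the selection itself. The size of their rise ran from log2 0.92 for CDYL, under the 2-fold limit, to 1.78 for PKD1P2, which is less than for MX1, ISG15 and BST2.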

How the data were processed

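The members and gene lists were chosen with earlier results of these data known. The authors trimmed reads with Trim Galore 0.6.7, used STAR 2.7.9a and the GRCh38 genome for mapping, obtained gene counts with featureCounts, and deposited these raw counts unnormalized. No per-sample column of the table was left out.

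From these counts, genes were filtered with filterByExpr, scaled by TMM (factors 0.916 to 1.04) and tested with edgeR 4.0.16 (quasi-likelihood test, R 4.3.3) in 1 model of the 4 groups and 8 libraries, without covariates. Adjusted p-values are Benjamini-Hochberg values over 15066 genes. A call also needs a change over 2-fold, after the study's thresholds. With 2 libraries against 2, an exact permutation test cannot go below p = 0.333, so single values were tested only in this model. The script was tested on simulated data, where recovery was judged on well-covered genes, a limit set after a first run had missed planted genes of low counts. Alternatives were DESeq2 1.42.0, other scalings and filters, the groups compared alone, a replicate block and each library left out.

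Named genes were all 10 members, STAT2 and IRF9, up to 3 called genes in each direction with the largest change per list and comparison, genes against the main direction (some items are not reported here), the 5 most alike in pattern, and interferon ligands by counts. LIPA, the noncoding gene over OAS2 and OAS3, IFNGR1, the relatives and single conjugation genes were named after their values were seen. Gene positions and overlaps are those of GENCODE 44, and intervals cover counting error and library spread within this experiment.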

Additional observations from a re-analysis of the deposited data

Results flagged for a closer look

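The genes MX1, ISG15 and IFIT5 responded to AX-0085 differently with IFN-γ than without it, by a test of the difference itself (the interaction in edgeR's quasi-likelihood test, Benjamini-Hochberg adjusted). For MX1 the change with AX-0085 was lower by -3.71 on the log2 scale with IFN-γ than without (adjusted p = 1.45e-05). For ISG15 the value was -2.99 (adjusted p = 3.09e-07), and for IFIT5 it was -1.23 (adjusted p = 1.96e-06). Of all genes tested, 6.46% were called lower and 12.1% higher for this difference. In each case both libraries given both agents lay below both IFN-γ libraries, beside 40% of all genes tested. That order describes AX-0085 added to IFN-γ and not the interaction.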

How the results depend on the processing

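The counts of the 5 measured genes called stayed within 1.5 times the reported ones in all alternatives run: 3 to 5 with IFN-γ, 3 to 5 on adding AX-0085, 0 for AX-0085 alone, 2 to 4 for both against AX-0085 and against untreated, and 3 or 4 for the interaction. A minimum of 10 counts in every library removed BST2, and with it the antiviral list had 14 calls with IFN-γ, 14 on adding AX-0085, 2 for AX-0085 alone, 2 for both against AX-0085 and 6 for both against untreated. Of all 12379 genes it kept, 1125 were called higher and 1716 lower with IFN-γ, and 1568 and 835 on adding AX-0085. For AX-0085 alone these were 520 and 569, for both against AX-0085 147 and 98, and for both against untreated 684 and 701. With the adjusted p alone, 14 of the 35 list genes tested passed for AX-0085 alone, beside 4018 higher and 4010 lower of all 15066 genes. For both against AX-0085 19 passed, beside 2601 and 2627, and for both against untreated 21, beside 4234 and 4339. The 14 and 21 thus do not stand out from all genes. Without a filter the list had 2 calls for AX-0085 alone, beside 1012 higher and 928 lower of 26065 genes. Leaving out 1 library gave 1 to 3 calls for AX-0085 alone, a log2 difference of -0.089 to 0.12 for OAS1 and of -0.46 to 0.19 for ISG15 with AX-0085 alone, and 73.8% to 78.8% removed for IFIT5. It was 74.2% with only the groups compared. Over all genes, the adjusted p alone called 4838 higher and 5421 lower with IFN-γ, against 1547 and 2590. Scaling by library size alone moved the median gene by -0.12 on the log2 scale with IFN-γ and 0.12 on adding AX-0085, and no gene among the 5 changed direction. The replicate numbers did not pair the libraries (correlations of -0.074 to 0.044), and with a replicate block 1537 and 2561 genes were called with IFN-γ, while BST2's interaction was -1.63 (adjusted p = 0.0473). The cause of these shifts was not tested. Depth limits BST2 and MX1 without IFN-γ.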
